A study of Homo sapiens with 6 samples.

Results

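The genes described here are 32 members of the pathways that make cholesterol and control sterol levels, of 23459 genes in the count table. They were chosen as the rows whose Entrez identifier belongs to a written list of symbols, and all 32 were found. The rule uses known function and no measured value, but the list was chosen with earlier results of these data known. It does not hold every enzyme of the pathway. IRF4-overexpressing Raji cells, infected with lentivirus carrying human IRF4 cDNA, were compared with control Raji cells infected with the empty vector, with 3 libraries in each group. Raji is an established human line of Burkitt lymphoma, a tumour of germinal centre B cells. Both groups had 5 days of infection and then 7 days of selection in puromycin at 3 µg/ml, in medium with serum. RNA was read from stranded poly(A) libraries. The cells are selected populations of 1 cell line, the promoter that drives the cDNA was not given in the sources used here, and nothing says whether the replicates were separate infections. The spread behind each p-value is thus that between libraries of a group, and it may be only technical.

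Cholesterol is built from acetyl-CoA by way of mevalonate, isoprenoids and squalene, and its rings are then modified in the endoplasmic reticulum. The pathway is governed by the SREBP transcription factors, which stay in that membrane with their escort SCAP and the anchor proteins INSIG1 and INSIG2 while sterols are plentiful, and move to the Golgi for cleavage when sterols fall. Oxidised sterols activate the LXR receptors, which raise cholesterol export and the breakdown of the lipoprotein receptor. In B cells the same pathway supplies membranes for growth and isoprenoids for protein prenylation, and an oxysterol made by way of CH25H guides cells through the receptor GPR183.

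The libraries held 27681979 to 46210702 counts. IRF4 was at 150.0, 120.5 and 125 CPM (counts scaled to a common library size with TMM factors) in IRF4-overexpressing replicates 1, 2 and 3, against 1.02, 1.38 and 1.37 CPM in control replicates 1, 2 and 3, where counts of the virus-borne and the endogenous gene cannot be separated. All values of single libraries below are given in this replicate order. The B cell markers MS4A1, CD79A, CD79B, CD22, BLNK, PAX5 and CR2 were present in every library, at a summed 2277 to 2359 CPM in IRF4-overexpressing and 2180.0 to 2303 CPM in control libraries. The 14 markers of T, myeloid, epithelial, mesenchymal, kidney and endothelial cells summed to 4.05 to 9.36 CPM in IRF4-overexpressing and 1.89 to 2.86 CPM in control libraries, and CD2, EPCAM, KRT19, COL1A2 and LHX1 had no count in any library. CSF1R, of myeloid cells, was at 4.07, 1.22 and 1.39 CPM in IRF4-overexpressing libraries and at 0.324, 0.521 and 0.438 CPM in control libraries. COL1A1, a collagen gene, was at 3.75, 1.19 and 1.68 CPM in IRF4-overexpressing libraries and at 0.473, 1.12 and 0.848 CPM in control libraries. CSF1R, COL1A1 and PECAM1, of endothelial cells, were each higher in every IRF4-overexpressing than in every control library, an order that 13.5% of all tested genes shared. All were highest in IRF4-overexpressing replicate 1, and none passed (edgeR adjusted p = 0.0846, 0.192 and 0.288). The part of these markers in the results was not tested. Within the groups the libraries differed along 1 shared axis, which took 74.3% of the remaining variance in log2 CPM. One side of it held IRF4-overexpressing replicates 2 and 3 with control replicate 1, and the other held IRF4-overexpressing replicate 1 with control replicates 2 and 3.

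No sterol gene passed the test for a difference between IRF4-overexpressing and control cells. Of the 32 genes, 30 had enough reads to be tested by edgeR's quasi-likelihood test, with Benjamini-Hochberg adjustment over all 12079 genes tested and a threshold of 0.05, and 0 were higher and 0 lower. Over all genes tested, 2.98% were called higher and 0.182% lower, 3.16% in all, so a count of 0 among 30 is near that background. At an unadjusted p under 0.05, 2 members were higher and 2 lower, against 11.3% and 8.18% of all genes. The median log2 fold change was 0.000997 over the members, beside 0.00729 over all genes, with 15 members above 0 and 15 below. DESeq2 called HMGCS1 and ABCA1 lower and no member higher, in a fit that called 4.78% of all genes higher and 1.45% lower, and limma-voom called no member, in a fit that called 2.81% and 0.182% of all genes.

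The precision of these values limits what the absence of calls can say. The 95% interval of the fold change lay within 1.5-fold of no change for 16 of the 30 members, beside 51.9% of all genes tested, and within 2-fold for 26 of them, beside 79.2%. The intervals of PMVK, SREBF2, INSIG2 and FASN reached past a 2-fold lower level. Without IRF4-overexpressing replicate 1, 7 members were called higher and 11 lower, in a fit where 19.9% and 25.1% of all genes were called. In that fit both IRF4-overexpressing libraries lay on one side of the library axis and 2 of the 3 control libraries on the other, so the group and the axis overlap in part. Without any other single library, 0 members were called in either direction by edgeR, in fits that called 0.975% to 1.28% of all genes higher and 0.0244% to 0.0246% lower. In bulk RNA, fewer cells that express a gene and less of its RNA per cell cannot be told apart.

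**Figure D1:**
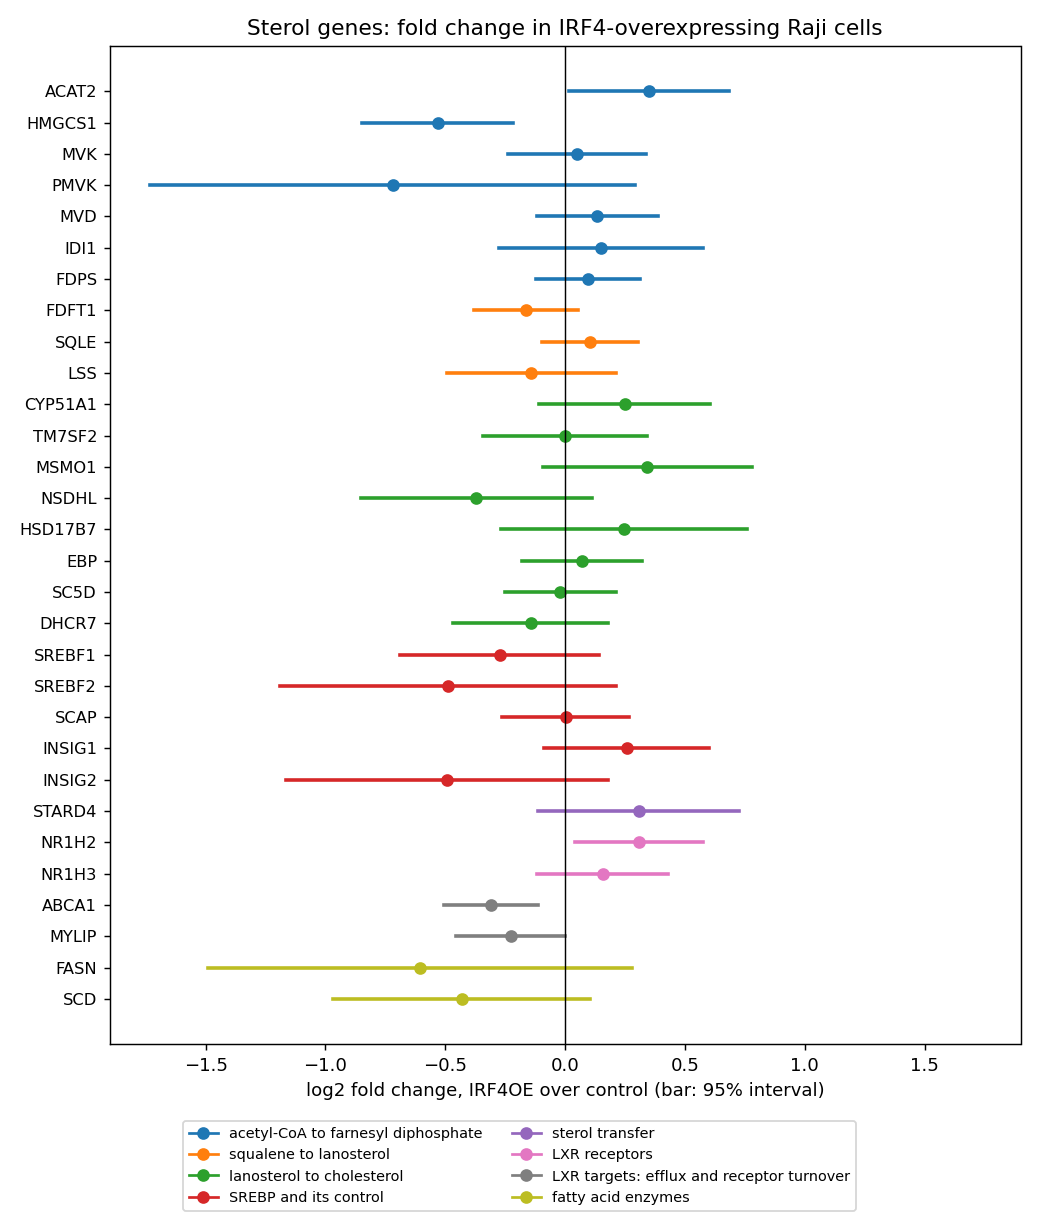
Log2 fold change of the 30 tested sterol genes, IRF4-overexpressing over control, with points for the estimate and bars for the 95% interval; colours mark the step or role. The interval of HMGCS1 (-0.85 to -0.22) and that of ABCA1 (-0.50 to -0.11) lie below 0, while PMVK has the widest interval (-1.73 to 0.29).

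The promoters of HMGCS1 and ABCA1 are shown because these genes had the 2 smallest p-values of the members. That of SREBF2 is shown because, of the member promoters searched, it alone held the form of the sterol response element that was searched. They were chosen after the values were seen. Each is the 250 bases before the gene's first listed start in RefSeq, build GRCh38.p14, written 5′ to 3′ along the gene's strand. This is another build than that of the count table, so the coordinates serve the sequences alone. Capitals mark every match to the searched motifs named after the sequences.
HMGCS1, chr5:43313413-43313662, minus strand: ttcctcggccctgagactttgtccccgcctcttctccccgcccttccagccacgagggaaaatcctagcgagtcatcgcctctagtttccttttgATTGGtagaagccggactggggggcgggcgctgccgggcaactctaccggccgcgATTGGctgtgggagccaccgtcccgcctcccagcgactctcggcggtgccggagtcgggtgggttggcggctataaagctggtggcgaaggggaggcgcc
ABCA1, chr9:104928156-104928405, minus strand: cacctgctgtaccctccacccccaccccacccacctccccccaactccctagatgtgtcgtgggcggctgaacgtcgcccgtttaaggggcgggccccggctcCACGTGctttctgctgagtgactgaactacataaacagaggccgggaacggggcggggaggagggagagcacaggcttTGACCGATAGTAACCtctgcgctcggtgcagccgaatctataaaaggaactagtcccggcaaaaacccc
SREBF2, chr22:41832855-41833104, plus strand: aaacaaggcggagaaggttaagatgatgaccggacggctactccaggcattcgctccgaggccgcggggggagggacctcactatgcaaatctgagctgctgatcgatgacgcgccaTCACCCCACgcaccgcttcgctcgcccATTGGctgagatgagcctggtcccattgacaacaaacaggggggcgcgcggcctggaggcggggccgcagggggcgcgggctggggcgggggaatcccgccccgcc

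Of the 32 members, 27 had a promoter in the table used, and ACAT2, FDFT1, SQLE, ABCG1 and FASN had none. The sterol response element, which SREBPs bind, was searched in a single form, TCACNCCAC, on both strands. This form was found 133 bases before the start of SREBF2 and in no other of the 27, beside 0.875% of the 27305 promoters. Other forms of the element were not searched, so its absence from the other promoters was not tested. The CCAAT box, searched as CCAAT on both strands and bound by NF-Y, a usual partner of SREBPs, was in 17 of 27 member promoters, 63.0%, against 33.0% of all promoters. HMGCS1 held it at 155 and 100 bases before the start, both times on the opposite strand. A direct repeat of the kind LXR receptors bind, searched on both strands as GGTNA followed, after 5 bases of any kind, by GGTCA, stood 69 bases before the start of ABCA1, on the opposite strand, and in 0.22% of all promoters. The E-box CACGTG, which reads the same on both strands, was in ABCA1, INSIG1, SC5D and SCAP, and in 6.49% of all promoters. The IRF motif, searched as GAAA, 2 bases of any kind and GAAA, and the composite ETS-IRF motif, searched as GGAA, 2 bases of any kind and GAAA, both on either strand, were in 0 of the 27, against 3.07% and 2.44% of all promoters. No marked match overlaps another. These are matches of letters in 1 window, and no binding was measured.

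The early steps from acetyl-CoA to farnesyl diphosphate gave both the lowest p-value of the list and some of its steadiest genes. HMGCS1, the synthase that makes HMG-CoA, was at 574, 439.6 and 429 CPM in IRF4-overexpressing libraries and at 724, 656 and 706 CPM in control libraries. All 3 IRF4-overexpressing libraries were below all 3 control libraries, an order that 11.9% of all tested genes shared. The means were 481 ± 81.1 CPM in IRF4-overexpressing and 695 ± 35.4 CPM in control libraries (SD, n = 3 each), with a log2 fold change of -0.53 (edgeR adjusted p = 0.0986, SE 0.13). It passed by DESeq2 (adjusted p = 0.0204), with a term for the library axis (edgeR adjusted p = 0.0416) and when IRF4-overexpressing replicate 1 was left out (edgeR adjusted p = 0.000303). Since the sides of the axis were read from these counts, p-values of that fit are too small. In the other alternatives HMGCS1 did not pass. Its adjusted p was 0.0883 by limma-voom and, by edgeR, 0.101 with median-ratio factors to 0.311 with the replicate block. Without any other single library its edgeR adjusted p was 0.283 to 0.404. Within the side with 2 IRF4-overexpressing libraries its log2 ratio of mean CPM was -0.74, and within the side with 1 it was -0.25. Ratios within the sides are given in this order.

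ACAT2, the thiolase that joins acetyl-CoA units, was at 147, 205 and 191 CPM in IRF4-overexpressing libraries and at 154, 139 and 134 CPM in control libraries. The groups overlapped, since IRF4-overexpressing replicate 1 lay below control replicate 1, and the log2 fold change of 0.35 did not pass (edgeR adjusted p = 0.239, SE 0.14). Annotated exons of ACAT2 overlap those of TCP1 and SOD2 on the opposite strand, and the strand setting of the counting was not given, so its value is uncertain. PMVK, which adds a second phosphate to mevalonate, was at 33.5, 15.1 and 9.24 CPM in IRF4-overexpressing libraries and at 29.2, 31.2 and 34.6 CPM in control libraries. IRF4-overexpressing replicates 2 and 3 were far below the other 4 libraries, while replicate 1 was among the control values. Its log2 fold change was -0.72 (edgeR adjusted p = 0.355, SE 0.43), the widest spread of the list.

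MVK, the kinase that first phosphorylates mevalonate, was at 36.9, 47.5 and 40.3 CPM in IRF4-overexpressing libraries and at 38.9, 43.4 and 38.2 CPM in control libraries, with both groups on the same range. MVD, which makes isopentenyl diphosphate, was at 62.8, 70.5 and 68.1 CPM in IRF4-overexpressing libraries and at 54.3, 66.4 and 62.8 CPM in control libraries. Their log2 fold changes were 0.050 and 0.13, with intervals of -0.24 to 0.34 and -0.12 to 0.39. Both groups overlapped for each gene, and exons of MVK overlap those of MMAB on the opposite strand. IDI1, the isomerase of that unit, was at 232, 333 and 337 CPM in IRF4-overexpressing libraries and at 321, 246 and 246 CPM in control libraries. FDPS, which builds farnesyl diphosphate, was at 231, 274 and 250.1 CPM in IRF4-overexpressing libraries and at 239.5, 238 and 229 CPM in control libraries. IDI1 followed the library axis, with control replicate 1 next to IRF4-overexpressing replicates 2 and 3, and its log2 fold change was 0.15 (SE 0.18). FDPS had a log2 fold change of 0.096 with an interval of -0.12 to 0.31, and it has 8 annotated pseudogenes with which it could share reads.

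**Figure D2:**
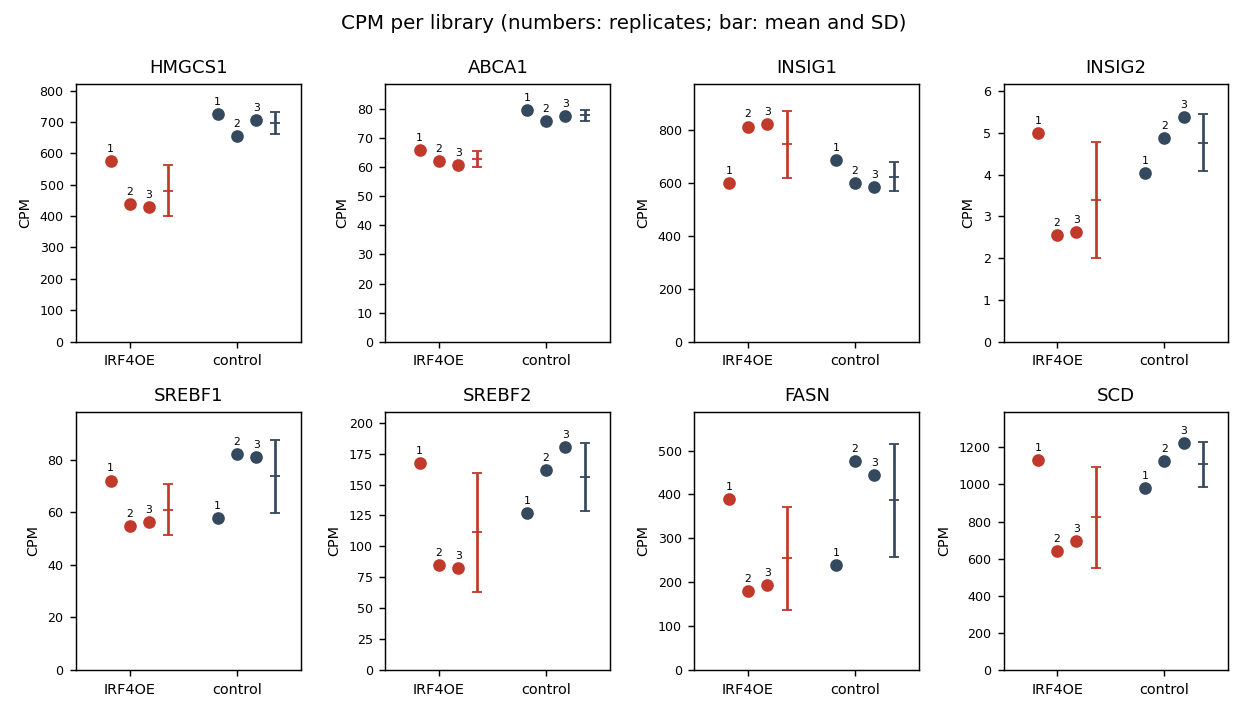
CPM of 8 sterol genes in each library, IRF4-overexpressing left of control, with replicate numbers at the points and the mean and SD beside them. HMGCS1 and ABCA1 separate the groups. IRF4-overexpressing replicate 1 lies apart from replicates 2 and 3 for INSIG1, INSIG2, SREBF1, SREBF2, FASN and SCD, and also for HMGCS1 (574 CPM against 439.6 and 429 CPM).

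The enzymes from squalene to lanosterol differed little between the groups. FDFT1, the squalene synthase, was at 435, 411 and 369.8 CPM in IRF4-overexpressing libraries and at 465, 442 and 456 CPM in control libraries, with every IRF4-overexpressing library below every control library. That order was shared by 11.9% of all tested genes. The gap was small, with a log2 fold change of -0.16 (edgeR adjusted p = 0.335, SE 0.091). SQLE, the epoxidase that is a rate-limiting step, was at 413, 456 and 458 CPM in IRF4-overexpressing libraries and at 427, 401 and 407 CPM in control libraries. Its groups overlapped, and the interval of its log2 fold change, -0.097 to 0.30, was narrower than that of any other member but ABCA1. LSS, the cyclase that closes the sterol ring, was at 170.2, 127 and 141 CPM in IRF4-overexpressing libraries and at 137, 178 and 168 CPM in control libraries. Control replicate 1 lay with IRF4-overexpressing replicates 2 and 3, and the log2 fold change of LSS was -0.14 (SE 0.15).

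Of the 8 listed enzymes that act between lanosterol and cholesterol, 0 passed edgeR's test, with 4 log2 fold changes above 0 and 4 below. They are not all the enzymes of this stage, and LBR, another sterol reductase, is given below with the accessory genes. Over all genes tested, edgeR called 2.98% higher and 0.182% lower. At an unadjusted p under 0.05 the count was also 0, beside 11.3% of all genes higher and 8.18% lower. Neither DESeq2 nor limma-voom called any of these enzymes. CYP51A1, the lanosterol demethylase, was at 127, 172 and 168 CPM in IRF4-overexpressing libraries and at 149, 120.0 and 123 CPM in control libraries. MSMO1, the methylsterol oxidase, was at 93.2, 135 and 141 CPM in IRF4-overexpressing libraries and at 113, 88.2 and 89.4 CPM in control libraries. In both genes IRF4-overexpressing replicate 1 was close to control replicates 2 and 3, and their log2 fold changes of 0.25 and 0.34 did not pass (edgeR adjusted p = 0.361 and 0.324). HSD17B7, a ketoreductase of the same demethylation steps, was at 17.8, 29.5 and 30.5 CPM in IRF4-overexpressing libraries and at 24.9, 20.1 and 20.7 CPM in control libraries. NSDHL, the dehydrogenase that works beside them, was at 16.5, 10.3 and 10.7 CPM in IRF4-overexpressing libraries and at 14.4, 18 and 16.0 CPM in control libraries. HSD17B7 was highest and NSDHL lowest in IRF4-overexpressing replicates 2 and 3. CYP51A1 and HSD17B7 have 3 and 2 annotated pseudogenes. Exons of CYP51A1 also overlap those of AC000120.2 over 2844 bases and those of AC000120.3 over 99 bases, both on the same strand. The value of CYP51A1 is thus uncertain.

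TM7SF2, a sterol reductase whose exons overlap those of VPS51 on the same strand, had the value closest to no change, with 19.6, 15.0 and 17.1 CPM in IRF4-overexpressing libraries and 15.2, 19.4 and 17.2 CPM in control libraries. EBP, the sterol isomerase, was at 37.7, 46.8 and 44.2 CPM in IRF4-overexpressing libraries and at 41.6, 41.3 and 39.7 CPM in control libraries. SC5D, the desaturase that follows, was at 68.9, 57.9 and 60.3 CPM in IRF4-overexpressing libraries and at 65.8, 62.0 and 61.9 CPM in control libraries. The log2 fold changes of these genes were -0.00034, 0.070 and -0.020, with intervals of -0.34 to 0.34, -0.18 to 0.32 and -0.25 to 0.21. DHCR7, the reductase of the final step, was at 171, 141 and 133 CPM in IRF4-overexpressing libraries and at 142, 175 and 175 CPM in control libraries, with a log2 fold change of -0.14 (SE 0.14). The groups overlapped for each of these genes. Together the 18 listed enzymes from ACAT2 to DHCR7 took 2888, 2985 and 2897 CPM in IRF4-overexpressing libraries and 3155, 2986 and 3025 CPM in control libraries. The means were 2923 ± 53.2 CPM in IRF4-overexpressing and 3055 ± 88.6 CPM in control libraries (SD, n = 3 each), and the highest IRF4-overexpressing library lay just under the lowest control library. Without HMGCS1 the other 17 enzymes summed to 2314, 2545 and 2469 CPM in IRF4-overexpressing libraries and to 2431, 2329.9 and 2319 CPM in control libraries, with means of 2443 ± 118 CPM in IRF4-overexpressing and 2359.8 ± 61.7 CPM in control libraries. The groups then overlapped, and the IRF4-overexpressing mean was the higher one. HMGCS1 was left out after its values were seen. Its own difference between the groups exceeded that of the full sums. The change of direction thus follows from leaving it out and says nothing more of the other enzymes.

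The SREBP system showed no called change, and all 5 of its genes were ordered along the library axis within both groups. SREBF2, the SREBP gene devoted to cholesterol synthesis, was at 167, 84.7 and 82.8 CPM in IRF4-overexpressing libraries and at 127, 162 and 181 CPM in control libraries. IRF4-overexpressing replicate 1 was among the control values, at about the level of control replicates 2 and 3, and the log2 fold change was -0.49 (edgeR adjusted p = 0.363, SE 0.30). Within the 2 sides of the axis the log2 ratio was -0.60 and -0.035. SREBF1, whose products favour fatty acid synthesis, was at 72.1, 54.7 and 56.1 CPM in IRF4-overexpressing libraries and at 57.8, 82.2 and 81.0 CPM in control libraries. SCAP, the escort protein gene, was at 77.6, 74.9 and 69.2 CPM in IRF4-overexpressing libraries and at 64.3, 77.5 and 79.4 CPM in control libraries. Control replicate 1 was the lowest control library for all 3 genes, and the log2 fold changes of SREBF1 and SCAP were -0.27 and 0.0023. Exons of SREBF1 overlap those of RAI1 on the opposite strand.

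The INSIG genes, whose products hold SCAP in the endoplasmic reticulum, had opposite orders across the libraries. INSIG1, itself a target of SREBPs, was at 599, 813 and 823 CPM in IRF4-overexpressing libraries and at 686, 601 and 583 CPM in control libraries. INSIG2, which is not under the same sterol feedback, was at 5.00, 2.57 and 2.63 CPM in IRF4-overexpressing libraries and at 4.03, 4.87 and 5.39 CPM in control libraries. INSIG1 was highest and INSIG2 lowest in IRF4-overexpressing replicates 2 and 3, while IRF4-overexpressing replicate 1 lay near control replicates 2 and 3. The log2 fold changes of 0.26 and -0.49 did not pass (edgeR adjusted p = 0.34 and 0.346, SE 0.15 and 0.28). STARD4, a soluble sterol carrier and SREBP target, was at 32.4, 45.2 and 47.4 CPM in IRF4-overexpressing libraries and at 39.6, 30.8 and 30.7 CPM in control libraries. As with INSIG1, it was highest in IRF4-overexpressing replicates 2 and 3, followed by control replicate 1, with a log2 fold change of 0.31 (SE 0.18).

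Among the LXR genes the receptors were higher in every IRF4-overexpressing library than in every control library. The 2 tested targets for export and receptor breakdown, ABCA1 and MYLIP, were lower in the same way, and none of the 4 passed edgeR's adjusted test. Orders of this kind held for 13.5% of all tested genes in the higher and 11.9% in the lower direction. In the neighbouring list of LXR partners and targets, PLTP was higher without overlap of the groups, and LPCAT3 was lower with overlap. Their log2 fold changes were 0.43 and -0.44 (edgeR adjusted p = 0.201 and 0.287). NR1H2, encoding LXR beta, was at 25.2, 29.6 and 26.9 CPM in IRF4-overexpressing libraries and at 19.8, 22.8 and 23.4 CPM in control libraries (log2 fold change 0.31, edgeR adjusted p = 0.209, SE 0.11). NR1H3, encoding LXR alpha, was at 5.03, 4.48 and 4.68 CPM in IRF4-overexpressing libraries and at 4.06, 4.24 and 4.43 CPM in control libraries. Its log2 fold change was 0.16 with an interval of -0.12 to 0.43, and its exons overlap those of ACP2 on the opposite strand. ABCA1, the exporter that loads cholesterol onto apolipoproteins, was at 65.8, 62.2 and 60.6 CPM in IRF4-overexpressing libraries and at 79.7, 76.0 and 77.8 CPM in control libraries. The means were 62.9 ± 2.66 CPM in IRF4-overexpressing and 77.9 ± 1.86 CPM in control libraries (SD, n = 3 each), with a log2 fold change of -0.31 (edgeR adjusted p = 0.119, SE 0.083). It passed by DESeq2 (adjusted p = 0.0313), with the library axis term (edgeR adjusted p = 0.0379) and when IRF4-overexpressing replicate 1 was left out (edgeR adjusted p = 0.00633). It did not pass in the other alternatives or without any other single library. Within the 2 sides its log2 ratio was -0.38 and -0.22.

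MYLIP, the ubiquitin ligase that degrades the lipoprotein receptor, was at 33.6, 32.9 and 30.0 CPM in IRF4-overexpressing libraries and at 39.5, 35.0 and 38.4 CPM in control libraries, with a log2 fold change of -0.23 (edgeR adjusted p = 0.258, SE 0.096). ABCG1, which exports cholesterol to high-density lipoprotein, had 0 counts in all IRF4-overexpressing libraries and 1 count in control replicate 1, so no fold change is given. CH25H, the hydroxylase that makes an oxysterol and is induced by interferon in mouse macrophages, had 0 counts in all 6 libraries. A count of 0 allows up to 3 counts over a group, 0.0251 CPM in IRF4-overexpressing and 0.029 CPM in control libraries, for counting error only. CH25H transcripts were thus not detectable at this depth in either group. GPR183, the receptor for an oxysterol derived from the CH25H product, rose 2.03-fold, with 30.6, 44.8 and 43.1 CPM in IRF4-overexpressing libraries and 21.7, 17.7 and 19.0 CPM in control libraries (log2 fold change 1.02, edgeR adjusted p = 0.0246, SE 0.17). It lost the call without any 1 library other than IRF4-overexpressing replicate 1 (edgeR adjusted p = 0.0771 to 0.115).

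The fatty acid enzymes carried by the list had wide spreads. FASN, the fatty acid synthase, was at 390.5, 179 and 193 CPM in IRF4-overexpressing libraries and at 239, 476 and 445 CPM in control libraries. SCD, the desaturase that makes oleate and that has 1 annotated pseudogene, was at 1133, 638 and 695 CPM in IRF4-overexpressing libraries and at 978, 1125 and 1222 CPM in control libraries. In both genes IRF4-overexpressing replicates 2 and 3 were the lowest libraries and control replicate 1 was the lowest of its group. The log2 fold changes of -0.61 and -0.43 did not pass (edgeR adjusted p = 0.367 and 0.317, SE 0.37 and 0.23). With the library axis term FASN had a log2 fold change of -0.30 and passed (edgeR adjusted p = 0.0407), in a fit that called 3 members lower, HMGCS1, ABCA1 and FASN, and 5.87% of all genes higher and 3.22% lower.

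The library axis ordered most of the list. In 10 of the 30 tested members, libraries on the side of control replicate 1 exceeded those of the other side within both groups, and in 12 they were lower within both groups. Over all genes tested these shares were 32.4% and 30.4%, so the members moved with the axis about as often as other genes. The 10 higher members were ACAT2, IDI1, FDPS, SQLE, CYP51A1, MSMO1, HSD17B7, EBP, INSIG1 and STARD4, 8 of them enzymes of synthesis. The 12 lower ones were PMVK, LSS, TM7SF2, NSDHL, DHCR7, SREBF1, SREBF2, SCAP, INSIG2, NR1H3, FASN and SCD. The axis was computed from all genes, these included, so its order among them is a description. The remaining 8 members, HMGCS1, MVK, MVD, FDFT1, SC5D, NR1H2, ABCA1 and MYLIP, had no such order.

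**Figure D3:**
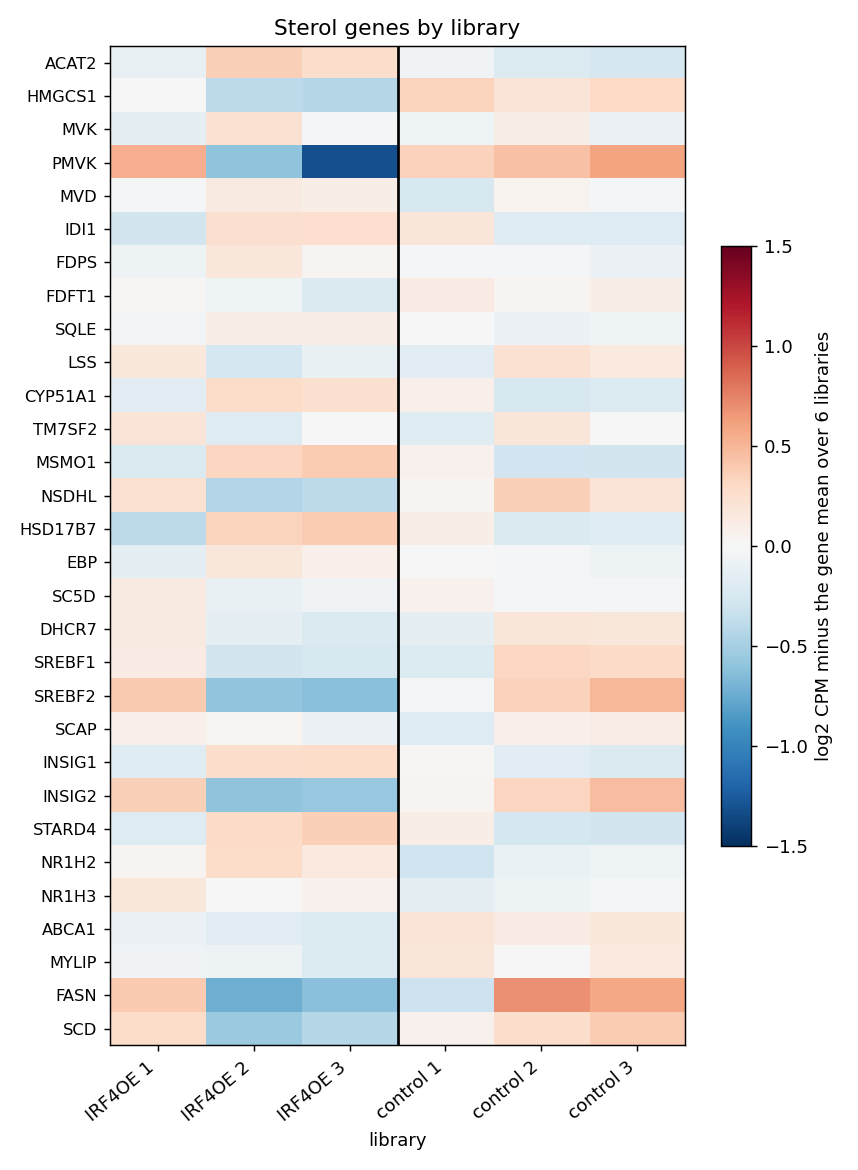
Log2 CPM of the 30 tested sterol genes in each library, minus the gene's mean over the 6 libraries, with red above and blue below that mean and IRF4-overexpressing libraries left of control libraries. IRF4-overexpressing replicate 1 takes the opposite colour from replicates 2 and 3 in most of the 22 genes that follow the library axis, while HMGCS1, ABCA1 and MYLIP change colour near the border between the groups.

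Levels per length span a wide range within the list. They are given as RPKM, TMM-scaled CPM divided by the deposited gene width in kilobases. INSIG1 was at 242 ± 41.0 RPKM in IRF4-overexpressing libraries and 202 ± 17.9 RPKM in control libraries (SD, n = 3 each), and SCD was at 150.4 ± 49.5 RPKM in IRF4-overexpressing libraries and 203 ± 22.4 RPKM in control libraries. FDPS was at 153 ± 12.9 RPKM in IRF4-overexpressing libraries and 143 ± 3.33 RPKM in control libraries, and SQLE was at 148 ± 8.43 RPKM in IRF4-overexpressing libraries and 138 ± 4.50 RPKM in control libraries. These 4 genes ranked highest in both groups, with SCD highest in control libraries and INSIG1 highest in IRF4-overexpressing libraries. HMGCS1, FDFT1 and IDI1 followed at 84.1 to 105 RPKM in IRF4-overexpressing and 75.8 to 127 RPKM in control libraries. SREBF2 was at 23.1 ± 9.98 RPKM in IRF4-overexpressing libraries and 32.4 ± 5.69 RPKM in control libraries, above SREBF1 at 10.4 ± 1.64 RPKM in IRF4-overexpressing libraries and 12.5 ± 2.35 RPKM in control libraries. INSIG2 and NR1H3 were the lowest tested members, INSIG2 at 1.32 ± 0.537 RPKM in IRF4-overexpressing libraries and 1.84 ± 0.265 RPKM in control libraries and NR1H3 at 1.41 ± 0.0821 RPKM in IRF4-overexpressing libraries and 1.26 ± 0.0554 RPKM in control libraries.

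**Figure D4:**
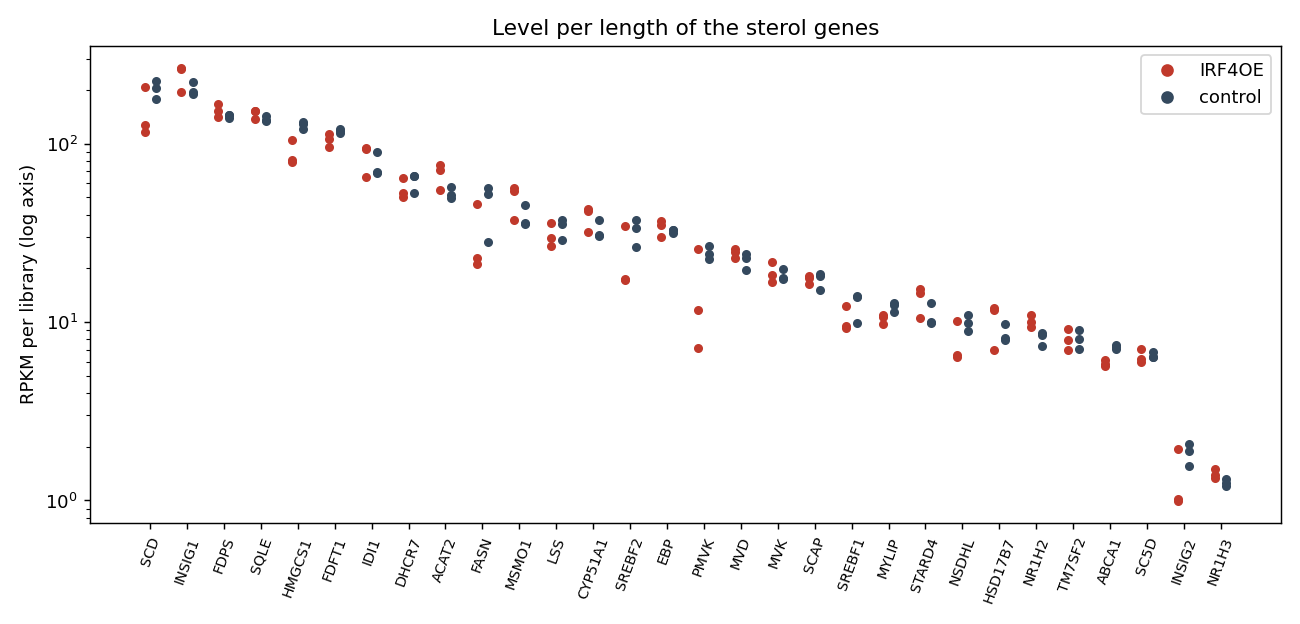
RPKM of the 30 tested sterol genes in each library on a log axis, ordered by the control mean, with IRF4-overexpressing libraries in red and left of control libraries in grey. INSIG2 and NR1H3 lie below 3 RPKM in every library, and SCD and INSIG1 lie above 100 RPKM in every library.

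In neighbouring pathways, a written list of 89 sterol and lipid genes of which edgeR tested 74, 2 genes rose and 1 fell, beside 2.98% higher and 0.182% lower over all genes tested. DESeq2 called 4 of them higher and 3 lower, beside 4.78% and 1.45% of all genes, and limma-voom called 1 higher and 1 lower, beside 2.81% and 0.182%. These counts are small and the shares of higher calls are near those of all genes. The largest change on the log2 scale was in PGGT1B. PGGT1B encodes the catalytic subunit of the geranylgeranyl transferase that attaches an isoprenoid of the mevalonate pathway to small GTPases. It fell to 0.379 of its control level, with 2.24, 2.08 and 2.26 CPM in IRF4-overexpressing libraries and 6.80, 5.36 and 5.20 CPM in control libraries. The means were 2.19 ± 0.0979 CPM in IRF4-overexpressing and 5.78 ± 0.881 CPM in control libraries (SD, n = 3 each), with a log2 fold change of -1.40 (edgeR adjusted p = 0.00535, SE 0.15). It passed without each library in turn (log2 fold change -1.48 to -1.27), and within the 2 sides of the axis its log2 ratio was -1.65 and -1.24. Its partner subunit gene FNTA was at 92.3, 126 and 131 CPM in IRF4-overexpressing libraries and at 119.5, 102 and 106 CPM in control libraries, with a log2 fold change of 0.097 (edgeR adjusted p = 0.702). FNTB, the subunit that makes FNTA a farnesyltransferase, had a log2 fold change of -0.35 that did not pass (edgeR adjusted p = 0.232). FNTA and FNTB were named for these shared subunits after the values were seen.

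GRAMD1C, one of the proteins that carry cholesterol from the plasma membrane to the endoplasmic reticulum, rose 1.89-fold. It was at 4.88, 6.18 and 7.11 CPM in IRF4-overexpressing libraries and at 3.56, 2.94 and 3.09 CPM in control libraries (log2 fold change 0.92, edgeR adjusted p = 0.0421, SE 0.17). The groups did not overlap, but the call was lost with limma-voom (adjusted p = 0.0524) and without any 1 library other than IRF4-overexpressing replicate 1 (edgeR adjusted p = 0.101 to 0.178). In the same list of 16 tested transport and esterification genes, NPC2, which hands cholesterol on in lysosomes, was at 20.8, 27.7 and 29 CPM in IRF4-overexpressing libraries and at 19.8, 17.8 and 17.4 CPM in control libraries. SOAT1, which esterifies cholesterol for storage, was at 109, 101 and 100.2 CPM in IRF4-overexpressing libraries and at 135, 123 and 126 CPM in control libraries. NPC2 lay above and SOAT1 below the control range in every IRF4-overexpressing library, with log2 fold changes of 0.49 and -0.31 that did not pass (edgeR adjusted p = 0.149 and 0.139). Such orders held for 13.5% of all tested genes in the higher and 11.9% in the lower direction. SOAT1 passed by DESeq2 (adjusted p = 0.0450). NPC2 and SOAT1 were named after their values were seen.

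Of 17 tested fatty acid synthesis genes, 0 passed edgeR's test, with 3 higher and 5 lower at an unadjusted p under 0.05, beside 11.3% and 8.18% of all genes. DESeq2 called LPIN1 and MID1IP1 higher and ELOVL6 lower, and limma-voom called none. LPIN1, a phosphatidate phosphatase, was at 22.4, 24.2 and 22.8 CPM in IRF4-overexpressing libraries and at 17.9, 15.3 and 15.7 CPM in control libraries (log2 fold change 0.50, edgeR adjusted p = 0.0581, SE 0.10). The groups did not overlap, an order that 13.5% of all tested genes shared in the higher direction. It passed with library sizes alone (edgeR adjusted p = 0.0271), by DESeq2 (adjusted p = 0.0041), with the axis term (edgeR adjusted p = 0.0194) and when IRF4-overexpressing replicate 1 was left out (edgeR adjusted p = 0.00433). In the other alternatives and without any other single library it did not pass. MID1IP1, an activator of acetyl-CoA carboxylase, had a log2 fold change of 0.40 (edgeR adjusted p = 0.116). ACLY, which supplies cytosolic acetyl-CoA, and ELOVL6, which lengthens palmitate, had log2 fold changes of -0.36 and -0.59 (edgeR adjusted p = 0.158 and 0.121). ACLY and ELOVL6 were named after their values were seen. Both lay below the control range in every IRF4-overexpressing library, as did 11.9% of all tested genes.

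The remaining lists held no call by edgeR, beside 2.98% called higher and 0.182% lower over all genes tested. At an unadjusted p under 0.05 the shares of all genes were 11.3% higher and 8.18% lower. In SREBP processing and sterol-regulated degradation, 0 of 12 passed, with 1 lower at an unadjusted p under 0.05. Of these 12, 5 lay below the control range in every IRF4-overexpressing library and 0 above it. Such orders held for 11.9% of all tested genes in the lower and 13.5% in the higher direction. No test was run over the list. ERLIN1, which takes part in degradation at the endoplasmic reticulum, and UBE2G2, a ubiquitin-conjugating enzyme, had log2 fold changes of -0.31 and -0.21 (edgeR adjusted p = 0.182 and 0.281). Among LXR partners and targets, 0 of 4 tested passed, with 1 higher at an unadjusted p under 0.05, and PLTP, a phospholipid transfer protein, was at 0.43 and LPCAT3, a phospholipid acyltransferase, at -0.44 on the log2 scale (edgeR adjusted p = 0.201 and 0.287). Of 7 tested accessory genes of sterol synthesis, 0 passed, and 0 did so at an unadjusted p under 0.05. Here CYB5R3, a reductase in the electron chain that serves sterol desaturation, and LBR, a sterol reductase of the nuclear envelope, had log2 fold changes of -0.58 and -0.15 (edgeR adjusted p = 0.355 and 0.404).

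**Figure D5:**
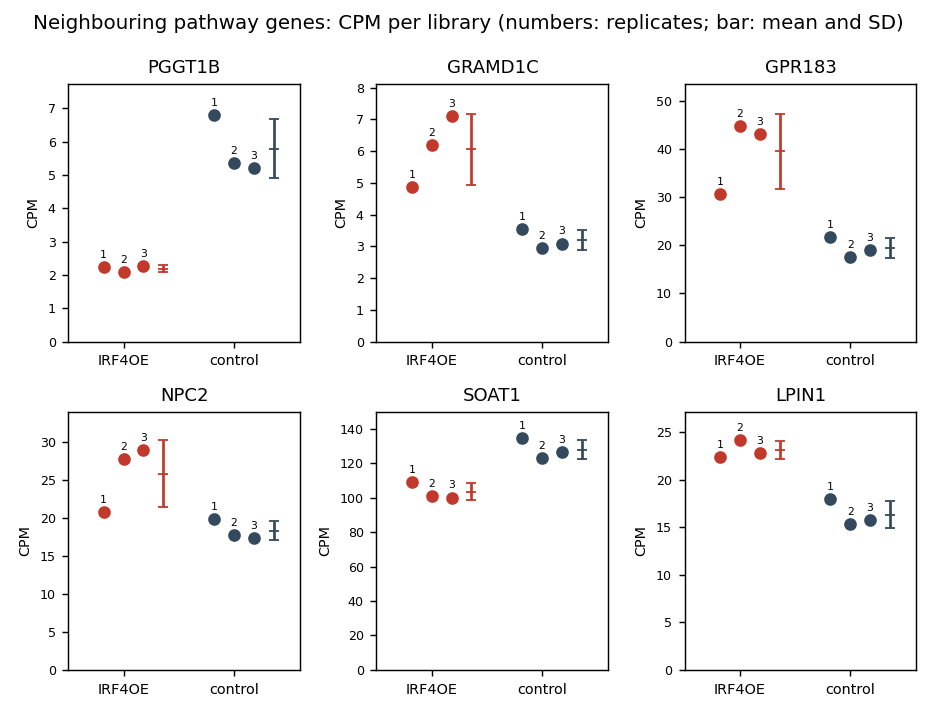
CPM of 6 genes of neighbouring pathways, picked after their values were seen, in each library, IRF4-overexpressing left of control, with replicate numbers at the points and the mean and SD beside them. Their groups do not overlap, as in 13.5% of all tested genes in the higher and 11.9% in the lower direction. On the log2 scale the change is largest for PGGT1B, which fell to 0.379 of its control level.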

How the data were processed

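Raw read counts per Entrez gene were deposited in 1 table with 1 column per library, whose values are whole numbers with differing totals. Columns headed WT hold the control libraries. The table also gives a width in bases for each gene. The submitters' processing notes name the human build hg19, and no source used here gave the aligner, counter, annotation or strand setting. Symbols came from RefSeq (GRCh38.p14); 151 of 23459 identifiers, with 0.122% of the counts, matched none. Counts were compared with edgeR 4.0.16 (R 4.3.3): TMM, filterByExpr, group-only design and two-sided quasi-likelihood F-test, with calls at an adjusted p under 0.05. SE is the absolute log2 fold change divided by the root of F, and 95% intervals use the t distribution of that fit. The text names IRF4, all members, GPR183, and per neighbouring list the called genes, or else the 2 with the smallest p; promoters were to be shown for called members, of which there were none. Alternatives were median-ratio factors, library sizes alone, 2 filters, DESeq2 1.42.0, limma-voom 3.58.1, a replicate block, an axis term and leaving out each library. Of the genes looked up beside the members, 1 marker and 1 neighbouring gene are not reported here. The members and lists were chosen with earlier results of these data known. The fit was first tested on simulated counts with known changes. It recovered 8.96% of 1.5-fold, 67.2% of 2-fold and 95.5% of 4-fold changes, with 6 false calls among 120. Most 1.5-fold changes were thus missed. Libraries of a group were no duplicates (chi-square per gene 6.60 to 199.8). Overlapping exons and pseudogenes came from GENCODE 29, and figures were drawn with matplotlib 3.10.9.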

Additional observations from a re-analysis of the deposited data

How the results depend on the processing

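Over all genes, edgeR's 360 higher and 22 lower calls became 577 and 175 with DESeq2, 709 and 389 with the axis term, and 3 and 0 with the replicate block, and the lower calls became 13 with library sizes alone. Without single libraries they ran from 120 to 2436 and from 3 to 3071. Members called lower numbered 2 with DESeq2 and 3 with the axis term, against 0, and without single libraries 0 to 7 were higher and 0 to 11 lower. For neighbouring genes, the 2 higher and 1 lower became 4 and 3 with DESeq2, 4 and 3 with the axis term and 0 and 0 with the replicate block, while limma-voom gave 1 higher. Without single libraries 0 to 17 were higher and 1 to 24 lower. The labels do not say whether same-numbered libraries were handled together. Their deviations from the group means correlated at -0.649, -0.219 and -0.467. The library axis shapes these values, so they cannot settle whether the libraries were paired. Under the block PGGT1B had an edgeR adjusted p of 0.100. Of the values of named genes under alternatives, 522 kept direction and side of the threshold, 34 newly passed, 14 no longer passed and 18 changed sign. Among single settings the sign changed for IDI1 (-0.010 with the axis term), TM7SF2 (0.094 with library sizes alone, 0.012 with the stricter filter, 0.0019 with limma-voom, 0.093 with the axis term), SC5D (0.075 with library sizes alone) and SCAP (-0.0099 with median-ratio factors, -0.013 with no filter, -0.0098 with DESeq2), on the log2 scale. Without single libraries MVK ran from -0.052 to 0.12, TM7SF2 from -0.11 to 0.10, SC5D from -0.11 to 0.040 and SCAP from -0.094 to 0.057. With library sizes alone the all-gene median log2 fold change was 0.10, against 0.00729. The cause of these shifts was not tested. Depth limits ABCG1 and CH25H, with 0 or 1 count.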

Other observations

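Some neighbouring genes had too few reads for the filter. GRAMD1B, a relative of GRAMD1C in sterol transfer from the plasma membrane, had 3, 14 and 17 counts in IRF4-overexpressing libraries and 0, 0 and 1 in control libraries. The ratio of counts pooled over each group and scaled for depth was 29.4, with an exact 95% counting interval of 4.94 to 1200.0. That interval covers counting error only and leaves out the spread between libraries. Without the filter the gene did not pass (edgeR adjusted p = 0.0762). SEC14L2, a lipid-binding protein gene, had 7, 8 and 8 counts in IRF4-overexpressing libraries and 2, 1 and 2 in control libraries, and did not pass without the filter (edgeR adjusted p = 0.15). SOAT2 and SMPDL3A had 0 counts in all 6 libraries. CYP7B1, which acts after CH25H, had 0 counts in IRF4-overexpressing libraries and 1 in control libraries. GRAMD1B, SEC14L2, SOAT2, SMPDL3A and CYP7B1 were named after their values were seen.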
